A study of Mus musculus with 8 samples.

Results

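The NAD metabolism and sirtuin genes are a chosen list of 34 mouse genes, out of 21887 protein-coding genes placed on mm10, and all 34 were found in the gene table. Acetylation of histone H3 at lysine 9 (H3K9ac), which marks active promoters, was measured in cerebella of mice aged 9 weeks by sequencing of immunoprecipitated chromatin. Replicates 1 to 4 from symptomatic C57BL/6 mice heterozygous for a knock-in allele labelled 266Q are called KI1 to KI4 here, and replicates 1 to 4 from wild type C57BL/6 littermates WT1 to WT4. The knock-in gene is Atxn7, whose expanded glutamine tract models spinocerebellar ataxia type 7, and every library used the same antibody on cerebellar tissue. A gene counted as carrying a peak in a library if a peak of that library's list overlapped the 1 kb on either side of either gene end. By this rule 15 of the 34 genes (44.1%) carried a peak somewhere among the 8 libraries and 19 did not, against 45% of all protein-coding genes with a peak.

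NAD is a coenzyme of oxidation and reduction reactions and is also broken down as a substrate. Cells rebuild it from nicotinamide by salvage, through nicotinamide phosphoribosyltransferase (Nampt) and the adenylyltransferase family of Nmnat genes, or make it de novo from tryptophan by the kynurenine pathway, which is mainly a pathway of the liver. Sirtuins use NAD to remove acetyl and other acyl groups from proteins, and poly(ADP-ribose) polymerases, Sarm1 and the cyclases Cd38 and Bst1 consume it as well.

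The 8 peak lists differed in length and peak width within each genotype. Replicates 1 and 2 of both genotypes held 7735 to 11409 peaks with median widths of 1065 to 1246 bp, and replicates 3 and 4 held 1266 to 5571 peaks with median widths of 132 to 148 bp. The files hold no read counts, so depth is unknown, and an absent peak may be a signal below the authors' threshold. Of the 8 genes chosen to mark granule neurons, 8 in KI1 and 8 in KI2 had a peak, against 8 in WT1 and 7 in WT2. Of the 8 for Purkinje neurons, 2 in KI1 and 3 in KI2 had one, against 1 in WT1 and 3 in WT2, and Pcp2, Car8, Pvalb and Ppp1r17 had no peak in any list. No marker of astrocytes (0 of 6), microglia (0 of 6) or liver (0 of 6) had a peak in any of the 8 lists. Of 6 markers each, only Npas3 of the interneuron, Mbp of the oligodendrocyte and Kdr of the vascular list had one. In whole tissue, a change of the mark per cell and a change in the number of cells that carry it cannot be told apart.

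The longer broad lists held a peak at more of these genes than the narrow ones. The counts were 13, 12, 4 and 0 of 34 in KI1 to KI4, against 12, 11, 1 and 0 of 34 in WT1 to WT4. Over all protein-coding genes the shares were 39.1, 36.2, 10.4 and 0.896% in KI1 to KI4, against 31.9, 27.8, 5.43 and 1.46% in WT1 to WT4. The members' shares were 38.2, 35.3 and 11.8% in KI1 to KI3, and 35.3, 32.4 and 2.94% in WT1 to WT3, near the background of the same lists. A peak in replicates 1 and 2 of both genotypes was found at 9 members (26.5%), against 22.9% of all genes. These 9 were Nampt, Nmnat2, Sirt1, Sirt7, Parp1, Sarm1, Nadk, Nadk2 and Ppargc1a.

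Counts by role were uneven. De novo synthesis had a peak at 0 of 8 genes in all 8 lists. Sirtuins had one at 5 of 7 genes, salvage at 4 of 8, the other NAD consumers at 2 of 6, and the remaining group of NADP formation, nicotinamide clearance and the coactivator Ppargc1a at 4 of 5. By library, sirtuins with a peak numbered 5, 4, 1 and 0 in KI1 to KI4, against 3, 4, 0 and 0 in WT1 to WT4. Salvage genes numbered 2, 2, 2 and 0 in KI1 to KI4, against 4, 2, 0 and 0 in WT1 to WT4. With 5 to 8 genes a role, the counts are a description of the list, and no test between roles was made.

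**Figure D1:**
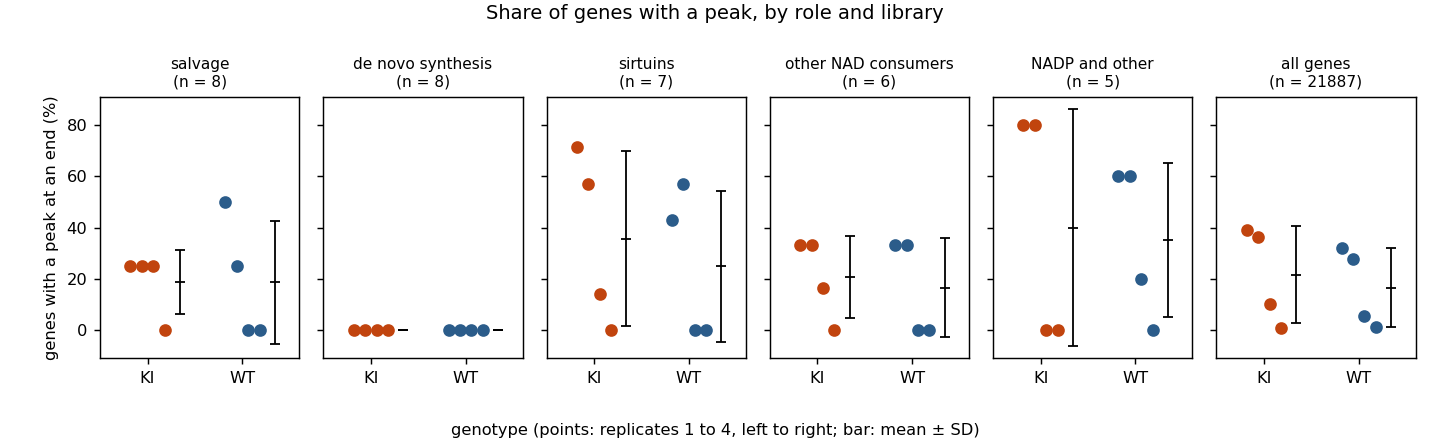
Percent of the genes of each role with a peak at a gene end (vertical axis) for knock-in (KI) and wild type (WT) libraries, with all protein-coding genes on the right. Points are replicates 1 to 4 from left to right and bars are mean ± SD (n = 4). De novo synthesis genes stay at 0 in every library, and in the other groups the points of replicates 1 and 2 lie at or above those of replicates 3 and 4.

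**Figure D2:**
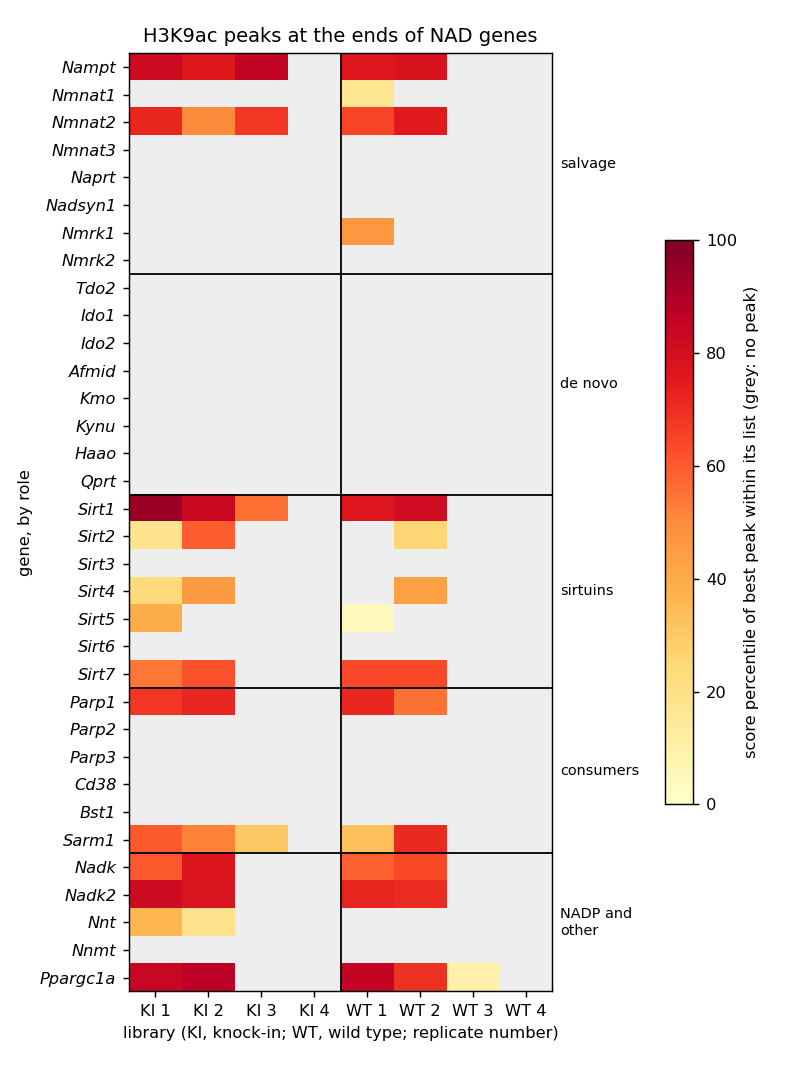
Score percentile of the best peak at either end of each of the 34 genes (rows, by role) in the 8 libraries (columns), where 100 is the highest score of that library's list and grey means no peak. The 8 de novo genes are grey throughout, and Nampt, Nmnat2, Sirt1 and Sarm1 are the genes with a peak in KI3.

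Promoter sequences are shown for 4 genes with a peak over the promoter in replicates 1 and 2 of both genotypes, for 2 genes rich in CpG without a peak, and for 3 promoters poor in CpG without a peak. Each holds 300 bases, from 250 before to 50 after an annotated start, taken from RefSeq on GRCm38.p6 (the assembly named mm10) and read along the gene's strand. Capitals mark CpG dinucleotides, a C followed by a G, which are dense in the CpG islands of many promoters.
Nampt (chr12:32820085-32820384, plus strand, 36 CpG): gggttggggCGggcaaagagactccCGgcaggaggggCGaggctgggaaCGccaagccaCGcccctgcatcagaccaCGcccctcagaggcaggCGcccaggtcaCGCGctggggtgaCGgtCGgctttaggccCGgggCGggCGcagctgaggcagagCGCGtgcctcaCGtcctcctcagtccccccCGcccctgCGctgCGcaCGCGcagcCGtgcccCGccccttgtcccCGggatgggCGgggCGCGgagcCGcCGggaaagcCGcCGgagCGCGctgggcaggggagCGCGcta
Nmnat2 (chr1:152954851-152955150, plus strand, 17 CpG): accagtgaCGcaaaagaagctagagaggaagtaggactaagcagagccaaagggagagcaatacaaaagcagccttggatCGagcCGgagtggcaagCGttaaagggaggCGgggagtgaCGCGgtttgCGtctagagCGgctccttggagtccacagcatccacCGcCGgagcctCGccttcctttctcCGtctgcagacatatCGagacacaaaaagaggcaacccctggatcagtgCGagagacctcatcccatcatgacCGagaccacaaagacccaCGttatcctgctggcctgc
Sirt1 (chr10:63338986-63339285, minus strand, 47 CpG): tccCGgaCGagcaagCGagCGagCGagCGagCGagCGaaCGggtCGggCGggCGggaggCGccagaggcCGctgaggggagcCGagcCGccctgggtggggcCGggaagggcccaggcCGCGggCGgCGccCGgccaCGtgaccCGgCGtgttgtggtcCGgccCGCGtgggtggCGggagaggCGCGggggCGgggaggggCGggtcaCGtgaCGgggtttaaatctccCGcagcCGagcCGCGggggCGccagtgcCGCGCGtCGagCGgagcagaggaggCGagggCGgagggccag
Nadk (chr4:155563565-155563864, plus strand, 24 CpG): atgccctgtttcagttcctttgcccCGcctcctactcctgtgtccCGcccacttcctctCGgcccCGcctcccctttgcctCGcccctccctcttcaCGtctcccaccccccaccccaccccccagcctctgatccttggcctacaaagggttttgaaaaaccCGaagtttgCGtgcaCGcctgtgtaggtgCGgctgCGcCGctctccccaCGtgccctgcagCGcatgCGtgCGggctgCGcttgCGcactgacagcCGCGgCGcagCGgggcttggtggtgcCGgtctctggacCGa
Nadsyn1 (chr7:143822803-143823102, minus strand, 27 CpG): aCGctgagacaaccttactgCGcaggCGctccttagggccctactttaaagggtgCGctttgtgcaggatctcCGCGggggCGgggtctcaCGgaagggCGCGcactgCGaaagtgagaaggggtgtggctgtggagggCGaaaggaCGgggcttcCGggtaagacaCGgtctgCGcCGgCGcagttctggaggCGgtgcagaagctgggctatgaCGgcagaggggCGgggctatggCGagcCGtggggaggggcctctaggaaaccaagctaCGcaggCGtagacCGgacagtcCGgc
Sirt3 (chr7:140881820-140882119, minus strand, 24 CpG): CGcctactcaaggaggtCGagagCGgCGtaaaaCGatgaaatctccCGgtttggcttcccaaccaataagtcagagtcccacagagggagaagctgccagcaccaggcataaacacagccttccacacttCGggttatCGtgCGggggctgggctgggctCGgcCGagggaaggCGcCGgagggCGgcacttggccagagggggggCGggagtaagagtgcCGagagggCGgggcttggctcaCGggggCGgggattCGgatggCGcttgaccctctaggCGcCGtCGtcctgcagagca
Kmo (chr1:175631943-175632242, plus strand, 7 CpG): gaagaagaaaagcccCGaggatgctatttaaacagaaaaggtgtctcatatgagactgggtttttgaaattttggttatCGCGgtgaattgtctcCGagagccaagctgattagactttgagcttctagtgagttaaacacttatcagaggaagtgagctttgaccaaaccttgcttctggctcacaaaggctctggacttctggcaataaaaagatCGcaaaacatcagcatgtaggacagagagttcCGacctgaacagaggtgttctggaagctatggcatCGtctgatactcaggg
Cd38 (chr5:43868559-43868858, plus strand, 1 CpG): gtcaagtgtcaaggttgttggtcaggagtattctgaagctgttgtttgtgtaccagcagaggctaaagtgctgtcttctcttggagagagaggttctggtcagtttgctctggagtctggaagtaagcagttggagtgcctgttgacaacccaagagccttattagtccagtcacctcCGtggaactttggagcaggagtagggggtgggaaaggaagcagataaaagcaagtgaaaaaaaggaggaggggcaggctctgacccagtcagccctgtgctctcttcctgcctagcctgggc
Ppargc1a (chr5:51567676-51567975, minus strand, 5 CpG): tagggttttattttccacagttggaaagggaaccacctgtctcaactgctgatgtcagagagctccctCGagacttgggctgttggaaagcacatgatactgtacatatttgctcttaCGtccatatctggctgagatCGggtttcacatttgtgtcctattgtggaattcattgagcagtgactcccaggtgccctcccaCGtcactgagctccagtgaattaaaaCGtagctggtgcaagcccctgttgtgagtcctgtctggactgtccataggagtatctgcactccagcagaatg

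Every member promoter overlapped by a peak held 15 or more CpG. The table of promoters held 30 promoters for 26 of the 34 genes. The 12 member promoters overlapped by a peak had 15 to 47 CpG (median 21.5), and the 18 without a peak had 1 to 27 (median 14). Over all 21263 promoters of protein-coding genes in the table, the median was 29 CpG where replicates 1 and 2 of both genotypes had a peak and 5 where no library had one. The members' median of 21.5 asked for a peak in at least 1 library only, so it is not the same measure as the 29. None of the 7 member promoters with 0 to 9 CpG had a peak, against 6.97% of all promoters in that range. Of the 23 member promoters with 10 or more CpG, 12 (52.2%) had a peak, against 70.2% of all such promoters. The 5 de novo promoters in the table, those of Tdo2, Afmid, Kmo, Haao and Qprt, had 4 to 18 CpG (median 7). The sirtuin promoters had 15 to 47 (median 20). Rich in CpG but without a peak in any list were Nadsyn1 (27 CpG), Parp2 (25), both starts of Sirt3 (24 and 23) and both starts of Sirt6 (21 and 20).

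**Figure D3:**
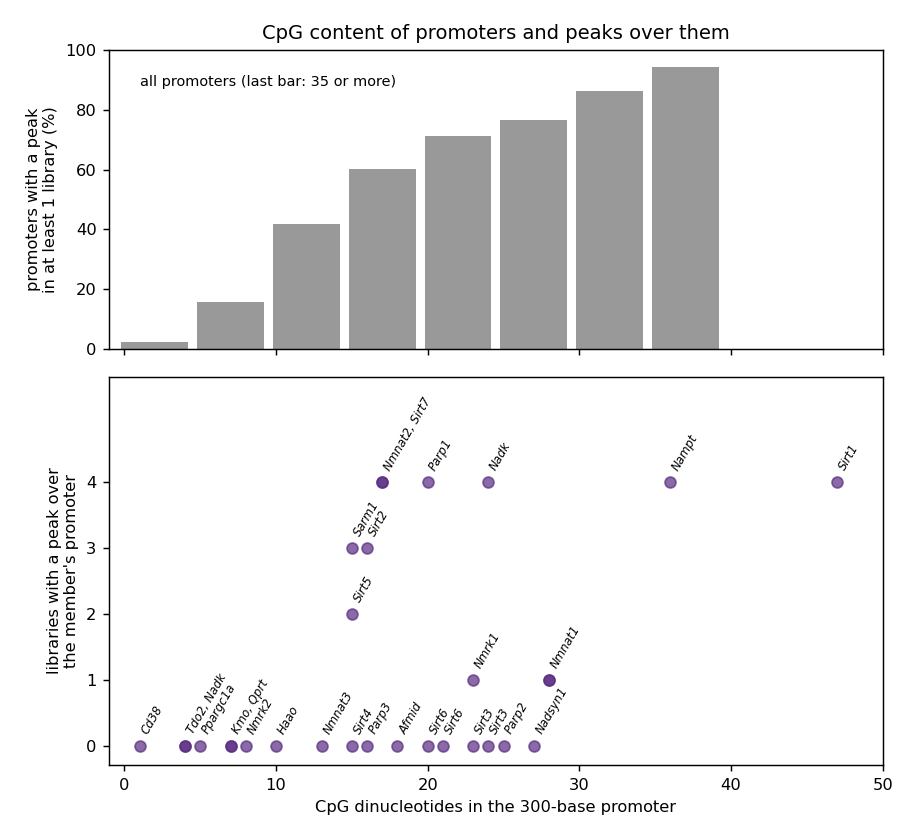
Upper panel, percent of all promoters in the table with a peak in at least 1 library, by the number of CpG dinucleotides in their 300 bases. Lower panel, number of libraries with a peak over the promoter for each of the 30 member promoters, some genes having 2. Member promoters with a peak have 15 to 47 CpG, and those at 0 libraries reach up to 27, at Nadsyn1.

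Short motifs were searched in the same 300 bases on both strands, as a description of letters only. The GC box GGGCGG was in 17 of 30 member promoters (56.7%), against 46.2% of all 21263. The E-box CACGTG, bound by clock and Myc family factors, was in 4 (13.3%), against 7.84% of all. The Sirt1 promoter held it at 2 positions, and 1 promoter each of Parp1, Parp2 and Nadk held it at 1. The NRF1 motif, GCGC followed by any base and then TGCGC, was in 5 (16.7%), against 6.38% of all, namely promoters of Nampt, Nadsyn1, Sirt6, Parp3 and Nadk. The cyclic AMP response element TGACGTCA was in 0 of 30 (2.23% of all), its shorter form TGACG, which TGACGTCA contains, in 9 (30%, against 23.6%), and CCAAT in 10 (33.3%, against 38.2%).

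In the salvage group, Nampt and Nmnat2 each had peaks in 5 libraries and Nmnat1 and Nmrk1 in 1. Nampt, the rate-limiting enzyme of nicotinamide salvage (chromosome 12, 32820335 to 32853369), had 1330, 1322, 371 and 0 bp of its windows covered by peaks in KI1 to KI4, against 1268, 1122, 0 and 0 bp in WT1 to WT4. The values of replicates 1 and 2 were high in both genotypes, slightly more so in knock-in, and KI3 had 2 narrow peaks of 144 and 227 bp. Mean covered length was 756 ± 676 bp in knock-in and 598 ± 693 bp in wild type (SD, n = 4 each), and the exact permutation test, two-sided, gave p = 0.571. Its best peak stood at score percentiles 82, 75.6 and 84.8 in KI1 to KI3, against 76.9 and 77.8 in WT1 and WT2, where the percentile is the share of peaks of the same list with an equal or lower score. Of the 300 promoter bases printed above, 300 and 300 lay in a peak in KI1 and KI2, against 300 and 210 in WT1 and WT2.

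Nmnat2, the adenylyltransferase of neuronal axons (chromosome 1, 152954781 to 153119266), had 1023, 1385, 173 and 0 bp covered in KI1 to KI4, against 821, 975, 0 and 0 bp in WT1 to WT4. The genotypes overlapped through the lists without a peak, with means of 645 ± 666 bp in knock-in and 449 ± 522 bp in wild type (SD, n = 4 each) and an exact permutation p of 0.571. Score percentiles were 72, 50.6 and 67.8 in KI1 to KI3, and 64.6 and 75.1 in WT1 and WT2. KI1 had a further peak of 921 bp inside the gene, just beyond the window, at percentile 6.03.

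Nmnat1 and Nmrk1 had a peak in 0 knock-in libraries and in 1 wild type library, replicate 1. Nmnat1 is the nuclear adenylyltransferase, and its peak of 799 bp at percentile 16.7 lay over both Nmnat1 and its neighbour Lzic. Nmrk1 encodes nicotinamide riboside kinase 1. Its peak of 1093 bp, at percentile 46.3, ended 17 bp before the Nmrk1 start and lay over the neighbouring gene Ostf1, 203 bp away. This pattern of 0 knock-in and 1 wild type library was held by 3.76% of the 9851 genes with a peak. Nmnat3, Naprt, Nadsyn1 and Nmrk2 had no peak. Nadsyn1, the synthetase that completes the routes from nicotinic acid and from tryptophan, had its nearest peak 6873 bp away at Dhcr7.

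No gene of de novo synthesis carried a peak at its ends. These are the dioxygenases Tdo2, Ido1 and Ido2 that open the tryptophan ring, the formamidase Afmid, the monooxygenase Kmo, kynureninase (Kynu), Haao, and Qprt, which makes the first compound shared with the route from nicotinic acid. The distance from a gene end to the nearest peak of any list ranged from 5873 bp at Kmo, at a narrow KI4 peak inside the gene, to 561497 bp at Kynu. At Ido1 and Ido2 the nearest peak was the same one, near Tcim, at 147578 and 95337 bp. Kmo is known as a microglial enzyme in brain. The 6 microglial markers Aif1, Cx3cr1, P2ry12, Tmem119, Csf1r and C1qa had no peak in any of the 8 lists. Whether the lack of a peak at the ends of Kmo is linked to cell type was not tested.

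Sirt1 had the highest score percentile of the sirtuins in KI1, KI2, WT1 and WT2. It encodes a nuclear deacetylase of histones and transcription factors (chromosome 10, 63319005 to 63339035). Peaks covered 1941, 1845, 281 and 0 bp of its windows in KI1 to KI4, against 1640, 1511, 0 and 0 bp in WT1 to WT4. Both knock-in values of replicates 1 and 2 lay above both wild type values, and the other lists held little or nothing. That order of replicates 1 and 2 was held by 32.4% of the 9851 genes with a peak. The means were 1017 ± 1019 bp in knock-in and 788 ± 911 bp in wild type (SD, n = 4 each), with an exact permutation p of 0.571. Score percentiles were 94.3, 83.4 and 55.8 in KI1 to KI3, against 76.6 and 81.4 in WT1 and WT2. In KI1 and in WT2, Sirt1 ranked first of the members by score. The whole 300-base promoter, with 47 CpG the richest of the members, lay in the peaks of replicates 1 and 2 of both genotypes.

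Sirt7, a nucleolar sirtuin (chromosome 11, 120618371 to 120625014), had 2301 and 1569 bp covered in KI1 and KI2, against 843 and 988 bp in WT1 and WT2, and 0 bp in replicates 3 and 4 of both. Part of the knock-in length came from a separate peak at the other end of the gene, 773 bp wide in replicate 1 and 1280 bp in replicate 2, which lay over the neighbour Pcyt2 and not over Sirt7. At the Sirt7 start itself, 103 bp from Mafg, the peak was 1528 and 814 bp wide in KI1 and KI2, against 843 and 988 bp in WT1 and WT2. At the start the genotypes overlapped. The exact permutation p for the summed length was 0.543.

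Sirt2 is a mainly cytoplasmic deacetylase abundant in myelin (chromosome 7, 28766752 to 28788665). Peaks covered 1205 and 1563 bp in KI1 and KI2, against 0 and 749 bp in WT1 and WT2. Replicates 3 and 4 of both genotypes had 0 bp, and the exact permutation p over all 8 libraries was 0.429. All Sirt2 peaks also reached the window of Nfkbib, 108 bp away. They were weak in KI1 and in WT2, at percentiles 18.3 and 26.1, and stood at 59.6 in KI2. Sirt5, a mitochondrial desuccinylase, had 1 peak per genotype, 1223 bp wide at percentile 38.8 in KI1 and 813 bp wide at percentile 4.41 in WT1.

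The peaks counted for Sirt4, a mitochondrial sirtuin (chromosome 5, 115478006 to 115490264), did not lie at its annotated start. They covered 888 and 1073 bp in KI1 and KI2, against 0 and 921 bp in WT1 and WT2. They covered 0 bp in replicates 3 and 4 of both genotypes (exact permutation p = 0.714 over all 8 libraries). They lay 4866 to 5283 bp upstream of the start in the promoter table, at the upstream end of the gene's span and over the small nuclear RNA gene Gm24265, and in 2 of the 3 lists over Gm24407 as well. At the start itself only KI1 had a peak within 1 kb, 840 bp wide and at percentile 0.745. Sirt3 and Sirt6 had no peak. Sirt3 is the main mitochondrial deacetylase and lies 85 bp from the proteasome gene Psmd13. Sirt6, which removes acetyl groups from lysine 9 of histone H3, lies 29 bp from Ankrd24. The windows of both neighbours overlap those of the sirtuins, and the nearest peaks stood 4708 bp from Sirt3 and 14666 bp from Sirt6.

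Of the other NAD consumers, Parp1 and Sarm1 had a peak, and Parp2, Parp3, Cd38 and Bst1 had none in any list. Parp1 makes poly(ADP-ribose) at DNA breaks (chromosome 1, 180568891 to 180600999). It had 1102 and 873 bp covered in KI1 and KI2, against 661 and 1001 bp in WT1 and WT2, with score percentiles of 67.7 and 72.1 in KI1 and KI2, against 71.7 and 55.3 in WT1 and WT2. The genotypes overlapped, replicates 3 and 4 of both had 0 bp covered, and the exact permutation p over all 8 libraries was 0.83. Parp1 peaks reached 37 to 133 bp upstream and 623 to 1101 bp downstream of the start.

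Sarm1, the NAD hydrolase that drives axon degeneration (chromosome 11, 78470273 to 78497816), had 1244, 1045, 142 and 0 bp covered in KI1 to KI4, against 896, 769, 0 and 0 bp in WT1 to WT4. Both knock-in values of replicates 1 and 2 exceeded both wild type values, as at 32.4% of the 9851 genes with a peak. Over all libraries the exact permutation p was 0.571, with means of 608 ± 628 bp in knock-in and 416 ± 483 bp in wild type (SD, n = 4 each). Score percentiles did not keep that order, at 59.8 and 52.2 in KI1 and KI2 and 32.9 and 71.4 in WT1 and WT2. The knock-in peaks of replicates 1 and 2 spanned the annotated start, while the wild type peaks began 43 and 160 bp downstream of it. Cd38 and Bst1, neighbours on chromosome 5 that make cyclic ADP-ribose, had their nearest peak at Fbxl5, 85624 and 35695 bp away, and the Cd38 promoter held 1 CpG.

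Among the genes of NADP formation, the NAD kinases carried a peak in replicates 1 and 2 of both genotypes. The cytosolic kinase Nadk (chromosome 4, 155562381 to 155591001) has 2 starts in the promoter table, 1434 bp apart. Peaks covered 316 and 573 bp of its windows in KI1 and KI2, against 536 and 290 bp in WT1 and WT2. The peaks reached beyond the 1 kb windows. They were 1643 and 1820 bp wide in KI1 and KI2 and 1297 and 1186 bp wide in WT1 and WT2, and lay over the second start, with 24 CpG, and over none of the 300 bases at the first, with 4 CpG. The mitochondrial kinase Nadk2 (chromosome 15, 9071260 to 9110496) had 1133 and 1264 bp covered in KI1 and KI2, against 1375 and 1110 bp in WT1 and WT2. Its score percentiles were 82 and 77.6 in KI1 and KI2, against 72.4 and 70.5 in WT1 and WT2. At both kinases the covered lengths overlapped between genotypes, and replicates 3 and 4 of both genotypes had 0 bp. Exact permutation p-values of covered length over all 8 libraries were 0.83 for Nadk and 1.00 for Nadk2. For Nadk this length holds only the part of each peak inside the window, which ends before the second start. In replicates 1 and 2 the Nadk widths and Nadk2 score percentiles were higher in both knock-in lists, while the Nadk score percentiles and Nadk2 lengths were not.

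Nnt had peaks in KI1 and KI2 and in none of the wild type libraries. It encodes the mitochondrial transhydrogenase that links NADH to NADPH (chromosome 13, 119335527 to 119409257), and the C57BL/6J substrain carries a deletion within it. The labels give C57BL/6 without a substrain, and whether the deletion bears on the peaks at Nnt was not tested. Peaks covered 1196 and 1013 bp in KI1 and KI2, against 0 bp in all wild type libraries. They stood at score percentiles 36.1 and 18.5 of their lists. The conditional exact p was 0.501 and its Benjamini-Hochberg adjusted p was 1.00, and 7.4% of the 9851 genes with a peak had this pattern. Nnmt, which methylates nicotinamide for clearance, had no peak.

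Ppargc1a encodes PGC-1α, a coactivator of mitochondrial genes and a target of Sirt1 (chromosome 5, 51454249 to 52115853). Peaks covered 1899, 1430, 0 and 0 bp in KI1 to KI4, against 1679, 1480, 152 and 0 bp in WT1 to WT4. Its gene-end peaks were 3587 and 3168 bp wide in KI1 and KI2 and 3446 bp in WT1, with width percentiles of 99.2, 98.5 and 99.3, where the percentile is the share of peaks of the list that are as wide or narrower. In WT2 there were 2 peaks, 1835 and 1314 bp wide, at width percentiles 91.9 and 71.1, and the WT3 peak of 152 bp stood at 59. All lay at the far upstream end of the gene, which is 548 kb from the start in the promoter table, and no library had a peak within 1 kb of that start, whose printed promoter held 5 CpG. In humans a far upstream promoter of PPARGC1A that is active in the brain has been described. Score percentiles were 83.6 and 87 in KI1 and KI2, and 85.1, 68.8 and 9.91 in WT1 to WT3. It was detected in 2 knock-in and 3 wild type libraries. The conditional exact test gave p = 0.222, or 1.00 after Benjamini-Hochberg adjustment.

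**Figure D4:**
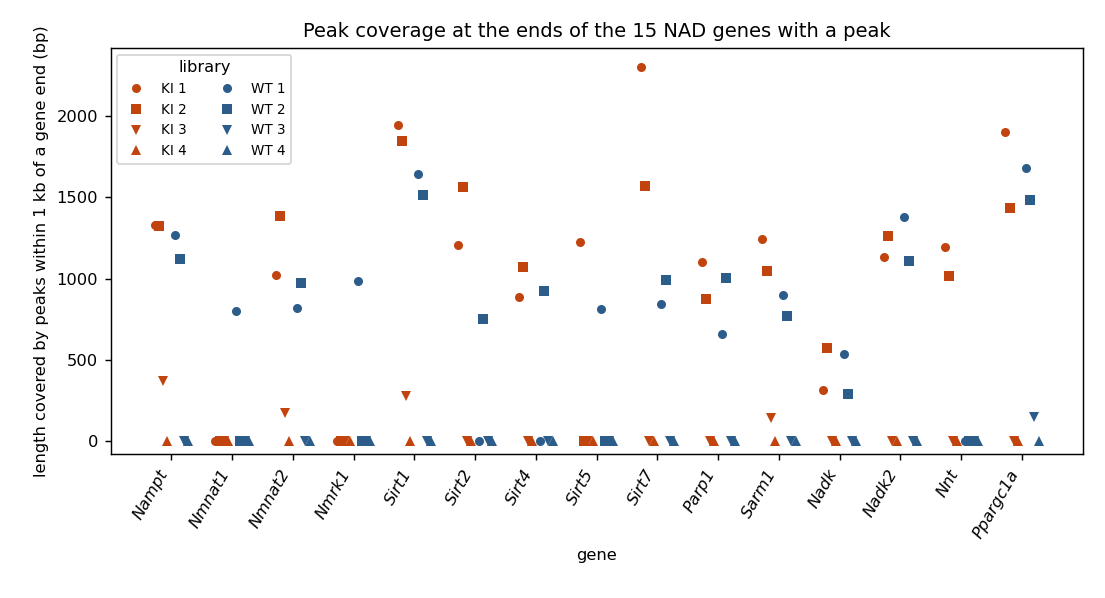
Length covered by peaks within 1 kb of either gene end (bp) for the 15 genes with a peak, with knock-in (KI, left of each gene) and wild type (WT, right) libraries and a symbol for each replicate number. Replicates 3 and 4 lie between 0 and 371 bp for every gene. At 7 of the 15 genes both knock-in values of replicates 1 and 2 lie above both wild type values, against 32.4% of all 9851 genes with a peak. At Sirt7 this order rests on separate knock-in peaks over the neighbour Pcyt2.

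The peaks at annotated starts lay mostly downstream of them. Over all lists, 41 member peaks at gene ends lay within 1 kb of a start of the member itself. Of these, 36 had their centre downstream, and the median of all 41 was 294.5 bp. Across all genes each peak was placed against the nearest start of any gene, which is a different measure. By it the share with a downstream centre was 80.6 to 84.4% over the 8 lists, and the median 227 to 288 bp. The 6 narrow peaks in KI3, at Nampt, Nmnat2, Sirt1 and Sarm1, all lay downstream, with centres 182 to 565 bp past the start and inside the span covered by the broad peaks of replicates 1 and 2. The 5 peaks centred upstream were those of Nmnat1 and Nmrk1 in WT1, which lay over a neighbouring gene, and those of Nadk in KI2, WT1 and WT2, which reached no other gene's window.

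**Figure D5:**
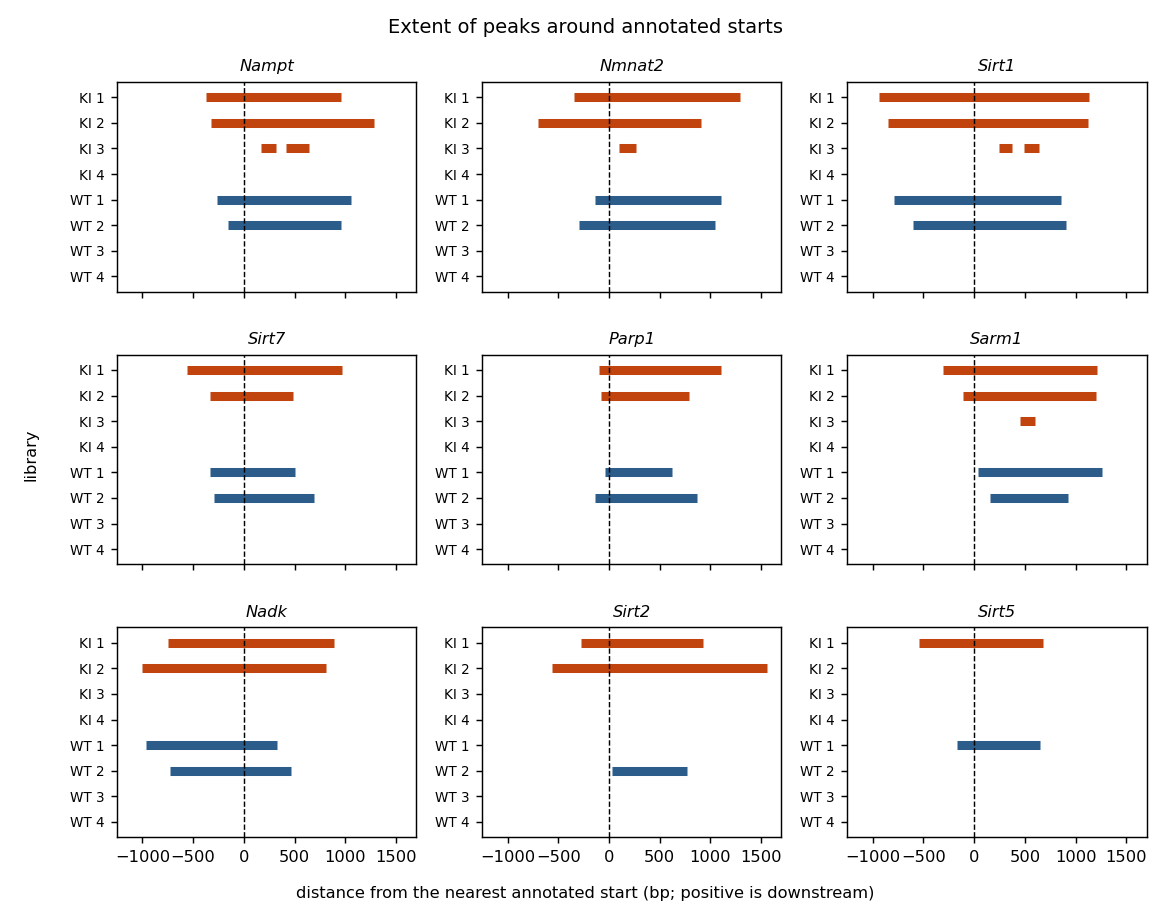
Extent of each peak (horizontal bars) around the nearest annotated start (dashed line at 0, in bp, positive downstream) for 9 genes, with knock-in (KI) libraries above wild type (WT) libraries. At Nampt, Nmnat2, Sirt1 and Sarm1 the short bars of KI3 lie within the span of the long bars, downstream of the start.

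Between genotypes, no member and no other gene was called. A conditional exact test asked whether a gene had its peaks in more libraries of 1 genotype than the library-specific odds of detection allow. It called 0 of 9826 genes at an adjusted p under 0.05 (0% called), with 90 at an unadjusted p under 0.05, and Fisher's exact test called 0 with 0 such genes. All 15 members with a peak had an adjusted p of 1.00, the smallest unadjusted p being 0.198 at Nmnat1 and Nmrk1. The exact permutation test of covered length called 0 of 9851 genes (0% called), with 0 at an unadjusted p under 0.05. The smallest p the design allows is 0.0286 for the permutation and Fisher's tests, and the smallest in these data was 0.143. Most genes would have to reach 0.0286 together before any passed the adjustment, so 0 calls from these tests was almost fixed in advance. No gene had covered lengths that did not overlap between genotypes (0%). These p-values do not show that the genotypes are alike.

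Of the 15 members with a peak, 7 had it in a larger number of knock-in libraries, 3 in a larger number of wild type libraries and 5 in equal numbers, with a median difference of 0. The background over all 9851 genes with a peak was 48% towards knock-in and 11.6% towards wild type, also with a median difference of 0. The 7 were Nampt, Nmnat2, Sirt1, Sarm1, Sirt2, Sirt4 and Nnt. The first 4 of these differed only by the narrow peaks of KI3, whose list held 5571 peaks, against 3249 in WT3. That pattern was held by 11.6% of the genes with a peak. Members with a peak averaged 7.25 ± 6.29 in knock-in and 6 ± 6.38 in wild type libraries (SD, n = 4 each), a difference of 1.25. Most of that spread lay between the broad lists, with 11 to 13 members, and the narrow lists, with 0 to 4. Within the broad lists of replicates 1 and 2, 12.5 members on average had a peak in knock-in, against 11.5 in wild type, and within the narrow lists of replicates 3 and 4, 2 had one in knock-in, against 0.5 in wild type. In replicates 1 and 2 both knock-in lengths lay above both wild type lengths at 7 of the 15 members, against 32.4% of the 9851 genes. These were Nampt, Nmnat2, Sirt1, Sirt2, Sirt7, Sarm1 and Nnt. At Sirt7 this order rested on separate peaks over the neighbour Pcyt2, and at the Sirt7 start the genotypes overlapped. The opposite order was seen at 0 of the 15, against 3.51% of the 9851.

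Further genes of ADP-ribose and NAD handling, and partners of PGC-1α and sirtuin target factors, were listed beside the members. Of 39 genes in these 3 lists, 38 were found in the table. Of these, 29 had a peak, against 45% of all protein-coding genes, with 0 called. The number of libraries was larger in knock-in at 12, larger in wild type at 1 and equal at 16. Over all 9851 genes with a peak, 48% lay towards knock-in and 11.6% towards wild type. Of 17 further ADP-ribosyltransferases and ADP-ribose hydrolases, 14 had a peak. Tiparp, a mono-ADP-ribosyltransferase induced by the aryl hydrocarbon receptor, was detected in 3 libraries of knock-in and 4 of wild type. Adprs, an ADP-ribose hydrolase, was in 3 knock-in libraries, against 1 of wild type (conditional exact p = 0.0533), and Parp10 in 2 of knock-in and 0 of wild type (conditional exact p = 0.501). Of 12 genes of the kynurenine branch, nucleoside handling and NAD transport or repair, 6 had a peak, and Naxd, a repair enzyme for hydrated NADH, was detected in 2 libraries of knock-in and 0 of wild type (conditional exact p = 0.501). All 9 partners of PGC-1α and sirtuin target factors had a peak, with Nrf1 in 3 libraries of each genotype and Pprc1, a relative of PGC-1α, in 2 of knock-in and 0 of wild type (conditional exact p = 0.501). Adjusted p-values of the conditional exact test were 1.00 for each gene named here.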

How the data were processed

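H3K9ac was measured in 8 cerebellar libraries, 4 from knock-in and 4 from wild type mice, grouped by the sample titles. The submitters' processing notes name Bowtie2 and the build mm10. The file headers name MACS in Galaxy, and each library has its own peak list. For the MACS version, settings and input control, nothing is stated in the labels or headers. The deposited lists hold peak positions and the authors' score, a value per peak on an unstated scale that served here for ranks inside a list alone. A start below 0 was raised to 0 at 15 of the 52676 peaks.

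Gene ends, biotypes and promoters came from RefSeq tables of GRCm38.p6. These give no exons, so peaks are placed by gene ends and starts only. The members and gene lists were chosen with earlier results of these data known. Of the further lists, Adprs was matched through a synonym and Rnls, not protein-coding in the table, was left out.

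Detection was tested per gene, two-sided and exact, conditional on library odds from a Rasch model. Covered length was tested over all 70 assignments of libraries to genotypes. P-values over all genes were adjusted by Benjamini-Hochberg, with calls under 0.05. Both procedures were also run on simulated data with planted changes. The planted genes there were too few for the permutation test to call any of them after adjustment. No label says whether libraries are of separate animals, and the p-values measure only the spread between libraries, which may be technical. Alternatives were windows of 500 bp and 3 kb, annotated starts only, lists of equal length, the upper part of scores, an overlap of 100 bp, Fisher's exact test, other measures, replicate pairs as a block, and libraries left out. The order of lengths within replicates 1 and 2 was counted after the values were seen. Values in every library are given for members with a peak in 3 or more libraries or in unequal numbers of libraries per genotype, and Sirt5 was added after its values were seen. Further genes are named where the genotypes differ by 2 or more libraries. Tiparp and Nrf1, each in the most libraries of its list, were named in addition. Python 3.11.15, numpy 2.4.6, pandas 2.3.3 and scipy 1.17.1 were used.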

Additional observations from a re-analysis of the deposited data

Results flagged for a closer look

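Covered length in 1 library stood apart from the other 3 of its genotype at 5 of the 15 members with a peak, and each time that library alone had a peak. These were Sirt5 at 1223 bp in knock-in replicate 1 and at 813 bp in wild type replicate 1, Nmnat1 at 799 bp and Nmrk1 at 984 bp in wild type replicate 1, and Sirt2 at 749 bp and Sirt4 at 921 bp in wild type replicate 2. Among salvage genes, knock-in replicate 4 stood apart with 0 genes with a peak, beside 2 in each of the other knock-in libraries. That is 7 of 42 groups of 4 libraries examined. Chance flags about 1 in 20 groups of continuous values, a rate that does not apply to 1 length beside 3 zeros, so the 6 flags on length say no more than that 1 library had a peak.

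Peaks inside genes, outside the windows at their ends, were present in a knock-in library and absent from the same place in every wild type library at 4 genes. Nmnat2 had one of 921 bp in knock-in replicate 1, Sirt4 one of 840 bp in knock-in replicate 1, Nnt one of 673 bp in knock-in replicate 2, and Kmo one of 114 bp in knock-in replicate 4. Each was seen in 1 library. The same pattern was found at 7.4% of all protein-coding genes. The opposite one, a peak in wild type and none at that place in any knock-in library, was found at 2 members, Nmnat2 (630 bp in wild type replicate 1, percentile 15.7) and Ppargc1a, and at 6.68% of all protein-coding genes. The score percentiles of the 4 knock-in peaks were 6.03 at Nmnat2, 0.745 at Sirt4, 5.41 at Nnt and 50.5 at Kmo.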

How the results depend on the processing

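The conditional exact test called 0 genes under every alternative run except without wild type replicate 2, where it called 1, Lrrc74b, which is not a member, so that leaving out single libraries gave 0 to 1. The permutation test of covered length called 0 genes throughout (0 to 0 with single libraries left out). That outcome was almost fixed by the smallest p this test can give, so it says little about robustness. The smallest adjusted conditional exact p of a named member was 1.00 under all alternatives. The replicate numbers were not taken as pairs, since detection in same-numbered libraries correlated at 0.05, 0.11, 0.14 and 0.41 after removal of genotype means, and 1 of these is not over 0.1. Knock-in replicates 2, 3 and 4 correlated best with their own number and knock-in replicate 1 with wild type replicate 2 (0.06). With the replicate block, 0 genes were called by either test, and the permutation p cannot fall below 0.125. The difference in members with a peak, knock-in minus wild type, ranged from -0.75 to 3.67 with single libraries left out, and was -0.667 without KI1, -0.333 without KI2, -0.417 without WT3 and -0.75 without WT4. Leaving out a broad knock-in or a narrow wild type list unbalances the list types. By replicate number the difference was 1, 1, 3 and 0, and within list types 1 in replicates 1 and 2 and 1.5 in replicates 3 and 4. It was 0.5 with lists of equal length, 1266 peaks each, which kept Sirt1 and Nampt in 1 knock-in library each and no member in wild type. With a 500 bp window Sarm1 no longer differed between genotypes in number of libraries. With the upper part of scores this held for Nmnat1, Nmrk1, Sirt4, Nnt and Ppargc1a. With replicates 1 and 2 only, it held for Nampt, Nmnat2, Sirt1, Sarm1 and Ppargc1a. With starts alone Nnt and Ppargc1a had no peak, Nnt having no start in the table. Depth is unknown and limits what an absent peak can show.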

Other observations

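Inside Ppargc1a, 176376 bp upstream of its annotated start, wild type replicate 1 had a peak of 1118 bp at percentile 25.6, and wild type replicate 4 had 2 narrow peaks of 88 and 131 bp that lay within the same span, at percentiles 61.2 and 7.51. No knock-in library had a peak there. Wild type replicate 4 had 0 members with a peak at their ends.

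Of the 19 members without a peak at their ends, 3 had a peak of another gene within 5 kb, namely Nmrk2 (4377 bp, at Dapk3), Sirt3 (4708 bp, at Ric8a and Bet1l) and Parp3 (4189 bp, at Gpr62 and Pcbp4). The median distance from these 19 genes to the nearest peak of any list was 25052 bp.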
